A study of Homo sapiens with 4 samples.

Results

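The genes examined here encode the subunits of the N-terminal acetyltransferases, and they were the 10 rows of the count files with the symbols NAA10, NAA11, NAA15, NAA16, NAA20, NAA25, NAA30, NAA35, NAA40 and NAA50, of 23228 gene rows in all. Their transcripts were measured by RNA sequencing in Daoy cells, an established human medulloblastoma line, that stably carried a lentiviral shRNA vector against PELP1 (2 libraries) or a lentiviral control shRNA vector (2 libraries). Both groups were the same line, each with a vector integrated after transduction, and grown in the same serum-containing medium. The labels do not give the shRNA sequences, whether the transduced cells were a pool or a clone, or whether the duplicates were separate cultures, so p-values reflect how far these libraries scattered, possibly for technical reasons. The title of the series places the comparison within a question about NF-κB signalling and medulloblastoma progression. NAA11 was chosen by its measured counts, low in the PELP1 shRNA libraries and higher in the control libraries, so its values are given as a description with no test. The other 9 genes entered as members of its family, in a list drawn up with earlier results of these data known.

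N-terminal acetyltransferases transfer an acetyl group from acetyl-CoA to the first residue of a protein, mostly while it is still being made on the ribosome, and most human proteins carry this mark. The enzymes are sorted by the residues they accept. NatA joins the catalytic subunit NAA10 to the auxiliary subunit NAA15, which anchors it at the ribosome, and acts on small residues exposed after the initiator methionine has been cut off. NAA11 is a paralogue that can take the catalytic place of NAA10 and has been described mainly in testis and placenta, and NAA16 is a paralogue of NAA15. NAA50 is the catalytic subunit of NatE and binds NatA. NatB holds catalytic NAA20 and auxiliary NAA25, NatC holds catalytic NAA30 with NAA35 and NAA38, and NatD is NAA40 alone, which acetylates histones H4 and H2A.

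The difference between NAA10 and NAA11 at the sequence level decides whether a short read can be assigned to one of them, so the start of each coding sequence is shown. Both runs are the first 150 coding bases on the minus strand of hg19, at chr4:80246882-80247031 for NAA11 and chrX:153199425-153200357 for NAA10, a span that holds an intron, and capitals mark the 19 bases that differ.
NAA11: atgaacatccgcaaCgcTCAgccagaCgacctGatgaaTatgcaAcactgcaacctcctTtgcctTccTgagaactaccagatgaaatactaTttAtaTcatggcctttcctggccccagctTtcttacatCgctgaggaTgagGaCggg
NAA10: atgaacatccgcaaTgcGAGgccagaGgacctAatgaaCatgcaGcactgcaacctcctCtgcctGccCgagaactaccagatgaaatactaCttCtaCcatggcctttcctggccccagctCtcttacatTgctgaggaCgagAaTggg

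Over the whole coding sequence 570 of 687 aligned bases were identical (83%), as were 191 of 229 aligned residues (83.4%). The longest identical run was 23 bases, shorter than the 50-base reads. Of 1982 windows of 50 bases along the NAA11 transcript, 0 matched the NAA10 transcript with up to 2 mismatches, 4 with up to 3 mismatches and 137 (6.91%) with up to 5. No window of NAA11 recurred exactly in a transcript of another gene. The NAA11 coding sequence lies in 1 exon, against 8 for NAA10.

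NAA11 is annotated on chromosome 4 (hg19, 80146848 to 80247215, minus strand) and NAA10 on the X chromosome (153194678 to 153200533, minus strand). NAA10 shares 481 exonic bases with ARHGAP4 on the same strand, and 27.8% of its 50-base windows recur in ARHGAP4 transcripts, so its counts can be partial. The RefSeq promoter table (GRCh38.p14) had entries for NAA11, NAA15, NAA16, NAA20, NAA35, NAA40 and NAA50. The 250 bases before the NAA11 start lie at chr4:79326062-79326311 on the minus strand. They are shown because they differ in base composition from those of the other subunits. Capitals mark the single match to CCAAT, which lies on the opposite strand and so reads as its reverse complement.
NAA11 promoter: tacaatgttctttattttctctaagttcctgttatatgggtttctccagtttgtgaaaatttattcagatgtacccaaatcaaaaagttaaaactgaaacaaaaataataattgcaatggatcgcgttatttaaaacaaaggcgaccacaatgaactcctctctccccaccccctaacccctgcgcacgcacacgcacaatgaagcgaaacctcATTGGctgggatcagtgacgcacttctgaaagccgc

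With the 50 bases after the start included, the NAA11 window held 11 CpG dinucleotides and 43.7% G or C, whereas the 9 entries of the other 6 subunits held 25 to 44 CpG and 64.3% to 77% G or C. Of all promoters in the table, 46.9% held as many or fewer CpG as NAA11. For the other entries that percentage ranged from 69.9% to 96.5%. CCAAT occurs, on either strand, in 34.6% of the 35116 windows of this length in the table. The NAA11 window held no match on either strand to TATAAA (11.5% of windows), GGGCGG (45%), CACGTG (7.26%) or the NF-κB motif (11.3%).

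Libraries held 29221640 and 26760085 counts in genes for the PELP1 shRNA and 24052542 and 26629578 for the control shRNA. Levels below are CPM, read counts scaled to sequencing depth with TMM factors, and log2 fold changes, given with their standard error (SE), have the PELP1 shRNA group on top. FDR is the Benjamini-Hochberg adjusted p of edgeR's quasi-likelihood test over the 14972 genes with enough reads, and its threshold was 0.05. PELP1, a nuclear receptor coregulator and the target of the shRNA, had 55.6 and 49.7 CPM in the PELP1 shRNA libraries and 168.2 and 185.2 CPM in the control shRNA libraries. The transcript of the gene that the labels name as target was thus lower in both PELP1 shRNA libraries than in either control (−1.75, SE 0.05, edgeR FDR = 1.54e-33). In that test 58.1% of all genes tested passed the threshold, 28.6% higher and 29.5% lower with the PELP1 shRNA, and the CPM of the groups did not overlap for 77.7%. In bulk RNA, fewer cells that express a gene and less of its RNA per cell cannot be told apart.

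NAA11 transcripts were near the limit of detection in PELP1 shRNA cells and readily counted in control cells. There were 9 and 14 NAA11 reads in the PELP1 shRNA libraries, against 323 and 372 in the control shRNA libraries. That is 0.298 and 0.508 CPM with the PELP1 shRNA and 13.8 and 14.5 CPM with the control shRNA. Each PELP1 shRNA value lay far below each control value, and the control values lay close together. The mean was 0.403 ± 0.148 CPM with the PELP1 shRNA and 14.1 ± 0.451 CPM with the control shRNA (SD, n = 2 each), so the PELP1 shRNA level was 2.85% of the control level. The fitted log2 fold change was −5.13 ± 0.20 (SE), and it ranged from −5.55 to −4.78 when each library was left out in turn, with PELP1 shRNA replicate 2 and replicate 1 giving the ends of that range. From the summed reads, 23 with the PELP1 shRNA and 695 with the control shRNA, the level was 35.5-fold lower after scaling (95% interval 23.5 to 56.4, counting error only).

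NAA10, the X-linked paralogue that forms the canonical NatA, was slightly lower. Its levels were 74.9 and 73.6 CPM with the PELP1 shRNA and 83.4 and 83.3 CPM with the control shRNA. Both PELP1 shRNA values lay below both control values, and NAA10 fell by 0.17 on the log2 scale (SE 0.05; edgeR FDR = 0.00322). Scaled by library size alone it no longer passed (adjusted p = 0.184).

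**Figure D1:**
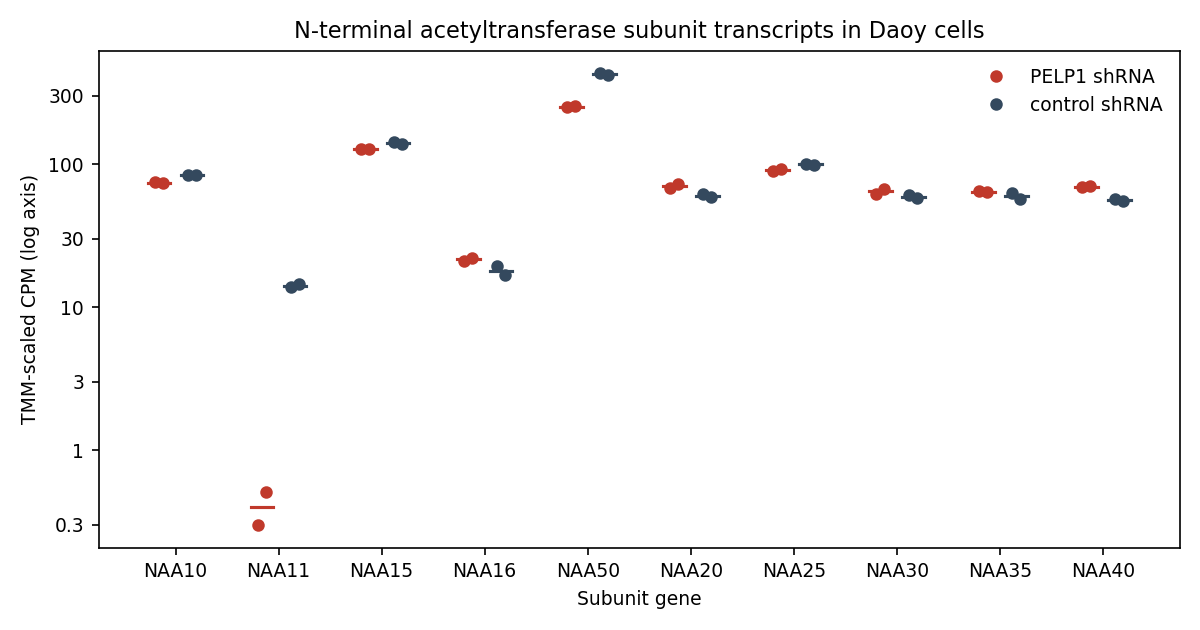
Level of each of the 10 subunit transcripts (TMM-scaled CPM, log axis) in the 2 PELP1 shRNA and 2 control shRNA libraries; points are libraries and bars are group means. NAA11 lies at 0.298 and 0.508 CPM with the PELP1 shRNA and 13.8 and 14.5 CPM with the control shRNA, whereas every other subunit lies above 16 CPM in all 4 libraries.

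NAA11 was a minor part of the reads from this pair of catalytic subunits even in control cells. It made up 0.397% (95% Clopper-Pearson interval 0.181% to 0.751%) and 0.686% (0.375% to 1.15%) of NAA10 and NAA11 reads in the PELP1 shRNA libraries. In the control shRNA libraries the share was 14.2% (12.8% to 15.7%) and 14.8% (13.4% to 16.2%). The intervals cover counting error only, since reads are not independent molecules. Per kb of exon the share was 0.980 ± 0.369% with the PELP1 shRNA and 23.6 ± 0.591% with the control shRNA (SD, n = 2 each). Per kb of the longest coding transcript it was 11.8% in control cells, so its size depends on the length used. NAA10 reads lost to the overlap with ARHGAP4 would raise each of these shares, and how many were lost was not measured. Together NAA10 and NAA11 had 75.2 and 74.1 CPM in PELP1 shRNA cells and 97.3 and 97.8 CPM in control cells. Most of the gap between those sums was NAA11 itself, because NAA10 averaged 74.3 CPM with the PELP1 shRNA and 83.4 CPM with the control shRNA, a smaller step than that of NAA11.

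The auxiliary NatA subunits moved in opposite directions. NAA15, the ribosome anchor of NatA, had 128.0 and 126.8 CPM in PELP1 shRNA libraries and 142.4 and 137.8 CPM in control libraries. Its groups did not overlap, and it fell by 0.14 on the log2 scale (SE 0.04; edgeR FDR = 0.00542). NAA16, its paralogue, had 21.0 and 22.2 CPM in PELP1 shRNA libraries and 19.3 and 16.6 CPM in control libraries. Its groups did not overlap either, although the control values differed from each other by more than the PELP1 shRNA values did, and it rose (0.27 ± 0.09, SE; edgeR FDR = 0.00620). There were 0.164 and 0.175 NAA16 reads per NAA15 read with the PELP1 shRNA and 0.136 and 0.121 with the control shRNA, a ratio 1.32-fold higher. NAA15 with NAA16 summed to 149 CPM in each PELP1 shRNA library and to 161.7 and 154.4 CPM in the control libraries. The call for NAA15 was lost under other scalings and without control replicate 1 (adjusted p = 0.0536) and without PELP1 shRNA replicate 2 (0.053), and that for NAA16 when PELP1 shRNA replicate 2 (0.0711) or control replicate 2 (0.196) was left out. NAA15 (chromosome 4, 140222600 to 140341187, plus strand) shares 638 exonic bases with antisense transcripts of NDUFC1 and RAB33B-AS1, and the strand setting of the counting is not given, so reads from those bases cannot be told apart.

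NAA50, the NatE acetyltransferase that binds NatA and is also needed for sister chromatid cohesion, had the largest change among the 9 subunits other than NAA11. Its reads numbered 7560 and 6993 with the PELP1 shRNA and 10071 and 10832 with the control shRNA. The levels were 250.6 and 253.7 CPM in PELP1 shRNA libraries and 430.9 and 421.0 CPM in control libraries. Replicates lay within a few percent of each other and the groups were far apart. NAA50 averaged 252.1 ± 2.24 CPM with the PELP1 shRNA, 59.2% of the 425.9 ± 7.02 CPM with the control shRNA (SD, n = 2 each). It fell by 0.76 on the log2 scale (SE 0.04; edgeR FDR = 1.04e-27), and it passed in every alternative except an assumed biological variation of 20% (adjusted p = 0.086). NAA50 lies on chromosome 3 (113435305 to 113465147, minus strand) and shares no exonic base with another annotated gene.

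NAA50 was also lower relative to the NatA subunits it binds. There were 1.96 and 2.00 NAA50 reads per NAA15 read with the PELP1 shRNA and 3.03 and 3.06 with the control shRNA. Per NAA10 read there were 3.34 and 3.45 with the PELP1 shRNA and 5.17 and 5.05 with the control shRNA. Both ratios were lower in each PELP1 shRNA library than in each control library, by factors of 0.651 and 0.665. These ratios are a description: 2 libraries against 2 cannot give a two-sided exact permutation p below 0.333, and no model of the ratios was fitted. NAA50 made up 30.3% and 30.1% of the summed CPM of the 10 subunits with the PELP1 shRNA and 41.8% and 42.0% with the control shRNA. Without NAA11 and NAA50 the remaining 8 subunits summed to 576.6 and 589.4 CPM in PELP1 shRNA libraries and 586 and 566.1 CPM in control libraries, and these ranges overlap.

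**Figure D2:**
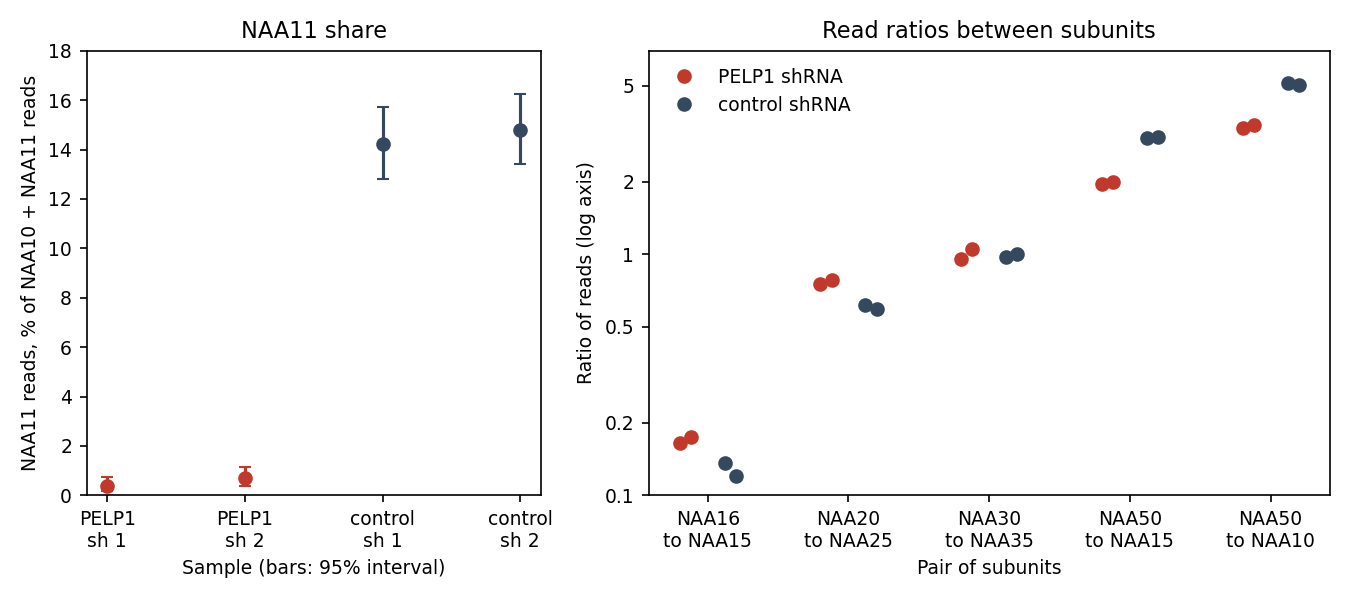
Left, NAA11 reads as a percentage of NAA10 and NAA11 reads in each library with 95% Clopper-Pearson intervals; right, ratio of reads between pairs of subunits (log axis), 1 point per library. The NAA11 share lies at 0.397% and 0.686% with the PELP1 shRNA and at 14.2% and 14.8% with the control shRNA, and the groups overlap for the pair NAA30 and NAA35.

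The subunits of NatB, which acetylates proteins that keep methionine before an acidic residue or its amide, also moved apart. Catalytic NAA20 had 67.7 and 72.6 CPM with the PELP1 shRNA and 61.6 and 59.0 CPM with the control shRNA. Both PELP1 shRNA values lay above both control values, and NAA20 rose (0.22 ± 0.05, SE; edgeR FDR = 0.000426). Auxiliary NAA25 had 90.0 and 92.8 CPM with the PELP1 shRNA and 99.5 and 99.2 CPM with the control shRNA. Its groups did not overlap, and it fell by 0.12 on the log2 scale (SE 0.05; edgeR FDR = 0.0255). NAA20 reads per NAA25 read were 0.752 and 0.782 with the PELP1 shRNA and 0.619 and 0.594 with the control shRNA, 1.26-fold higher. The NAA25 call was lost when PELP1 shRNA replicate 1 (adjusted p = 0.2), control replicate 1 (0.0682) or control replicate 2 (0.062) was left out, and with DESeq2 (0.0877) and upper-quartile factors (0.225). NAA20 passed with any 1 library left out.

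The NatC subunits, whose substrates begin with methionine before a hydrophobic residue, did not pass the threshold. Catalytic NAA30 had 61.8 and 67.3 CPM with the PELP1 shRNA and 60.8 and 57.7 CPM with the control shRNA. The lower PELP1 shRNA library lay just above the higher control library, and the log2 fold change was 0.12 ± 0.06 (SE; edgeR FDR = 0.0504). Auxiliary NAA35 had 64.4 and 63.7 CPM with the PELP1 shRNA and 62.5 and 57.2 CPM with the control shRNA. Those groups were separated by less than the spread of the control pair, and the log2 fold change was 0.10 ± 0.06 (SE; edgeR FDR = 0.113). The ratio of NAA30 to NAA35 reads overlapped between groups, at 0.959 and 1.06 with the PELP1 shRNA and 0.973 and 1.01 with the control shRNA. Both genes passed without control replicate 1 (adjusted p = 0.0342 for NAA30 and 0.0313 for NAA35), and NAA30 also without PELP1 shRNA replicate 1 (0.0237). The small NatC subunit NAA38 is present in the files under its older symbol LSMD1, with 20.5 and 18.7 CPM in PELP1 shRNA libraries and 19.7 and 21.5 CPM in control libraries. Its groups overlapped (−0.07 ± 0.08, SE; edgeR FDR = 0.479).

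NAA40, the NatD enzyme that acetylates the tails of histones H4 and H2A, rose. It had 68.7 and 70.4 CPM with the PELP1 shRNA and 56.6 and 55.4 CPM with the control shRNA. Both pairs were tight and did not overlap (0.31 ± 0.05, SE; edgeR FDR = 1.1e-06), and NAA40 passed with any 1 library left out. Its log2 fold change was the highest among the 10 subunits.

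Of the 9 subunits other than NAA11, 3 rose (NAA16, NAA20 and NAA40), 4 fell (NAA10, NAA15, NAA25 and NAA50) and 2 did not pass (NAA30 and NAA35). Over all genes tested 28.6% passed as higher and 29.5% as lower. Scaled by library size alone, 5 of the 9 rose (NAA16, NAA20, NAA30, NAA35 and NAA40) and 1 fell (NAA50), and with upper-quartile factors the same 5 rose and NAA10 and NAA50 fell. Calls over all genes leaned the same way. Of 14972 genes tested, 5681 were higher and 3305 lower with library size alone, and 5071 and 3694 with upper-quartile factors. All 10 subunits had enough reads to be tested. Their groups did not overlap in CPM for any of the 10, against 77.7% of all genes tested, so separation of the libraries alone does not set the subunits apart. The median absolute log2 fold change of the 9 was 0.167, against 0.260 over all genes tested, and the medians with sign were 0.10 and 0.0022. With TMM factors, among catalytic subunits NAA10 and NAA50 fell while NAA20 and NAA40 rose, and among auxiliary subunits NAA15 and NAA25 fell while NAA16 rose. Under the other 2 scalings no auxiliary subunit passed as lower.

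**Figure D3:**
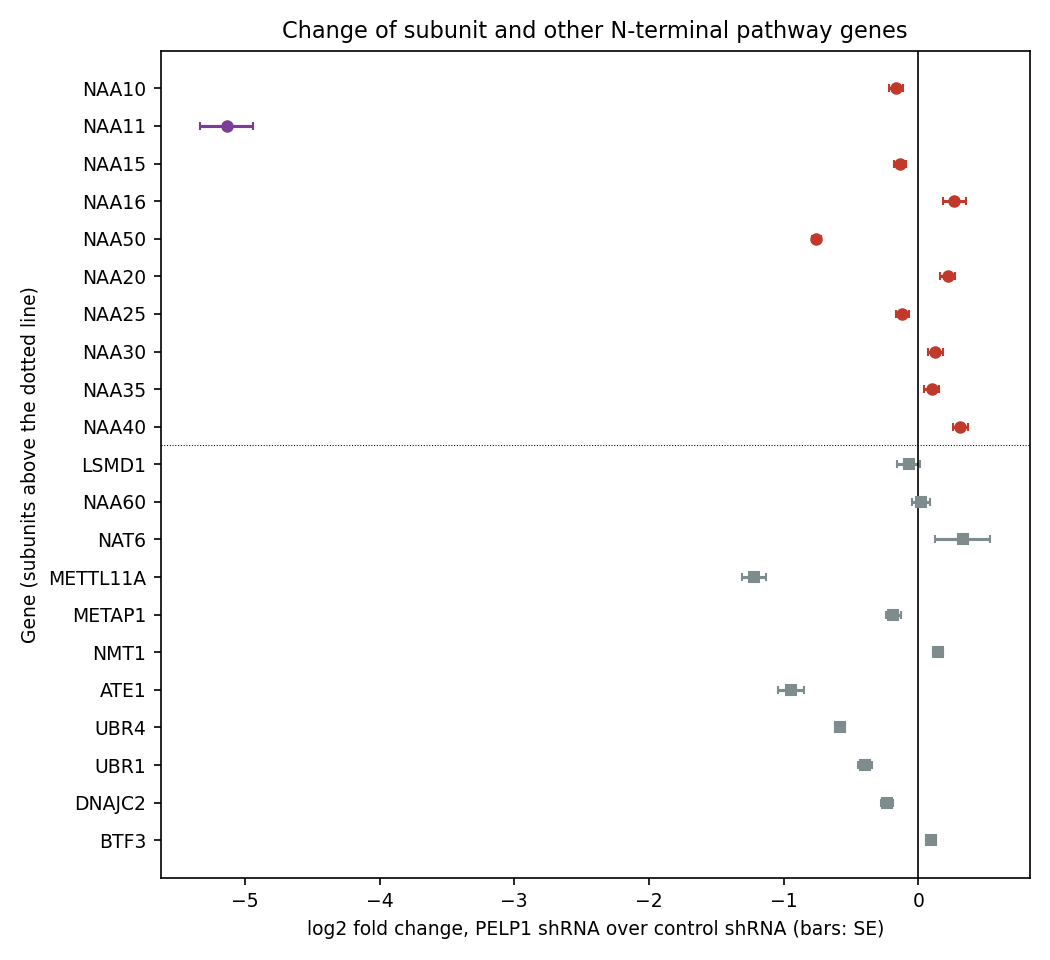
Log2 fold change, PELP1 shRNA over control shRNA, of the 10 subunit genes (circles, NAA11 in purple) and of other genes of N-terminal protein processing (squares); bars are SE of the edgeR fit. NAA11 lies at −5.13 and NAA50 at −0.76, while the other 8 subunits lie between −0.17 and 0.31.

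Per kb of annotated exon, subunit levels could be set against each other. In control cells the order from high to low was NAA50, NAA20, NAA10, NAA15, NAA40, NAA25, NAA35, NAA30, NAA11 and NAA16. NAA50 averaged 66.2 CPM per kb there, NAA20 27.6, NAA10 16.9, NAA15 13.96 and NAA40 10.5. NAA25 averaged 10.0 CPM per kb, NAA35 8.79, NAA30 7.75, NAA11 5.20 and NAA16 3.10. No neighbours in that order overlapped between libraries, so in control cells NAA11 was above NAA16 per kb. In PELP1 shRNA cells the order was NAA50, NAA20, NAA10, NAA40, NAA15, NAA35, NAA25, NAA30, NAA16 and NAA11, at 39.2, 32.1, 15.01, 13.1, 12.7, 9.42, 9.23, 8.45, 3.72 and 0.148 CPM per kb. In that order NAA35 and NAA25 overlapped and no other neighbours did. With the length of the longest coding transcript in place of all exons, the order at the top was NAA10, NAA20 and NAA50 in PELP1 shRNA cells and NAA50, NAA10 and NAA20 in control cells, while NAA11 kept rank 10 in PELP1 shRNA cells and rank 9 in control cells. NAA10 moved most with the length, to 46.3 CPM per kb with the PELP1 shRNA and 52.0 with the control shRNA, because its annotated exons span 4946 bases and its longest coding transcript 1603.

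Other acetyltransferase genes of the family did not pass the threshold. NAA60, which acetylates membrane proteins at the Golgi, had 34.1 and 32.3 CPM with the PELP1 shRNA and 33.1 and 32.5 CPM with the control shRNA, and these overlapped (0.02 ± 0.07, SE; edgeR FDR = 0.836). NAT6, the older symbol of the actin acetyltransferase gene NAA80, had 2.68 and 2.79 CPM with the PELP1 shRNA and 2.05 and 2.29 CPM with the control shRNA (0.33 ± 0.20, SE; edgeR FDR = 0.165). HYPK, a chaperone bound to NatA, was looked up under its older symbol C15orf63 after that name was seen among the gene rows. The row held 1 and 0 reads with the PELP1 shRNA and 1 and 1 with the control shRNA, too few to test. A row with the joined name SERF2-C15ORF63 held 0 reads in every library. Whether reads were set apart as ambiguous between these rows was not tested, so the counts do not show that HYPK was absent.

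Enzymes that act on the same protein ends before or instead of acetylation changed in both directions: NMT1 rose, METTL11A and METAP1 fell, and the other 4 of 7 tested did not pass. For comparison, 28.6% of all genes tested were higher and 29.5% lower. METTL11A, the N-terminal methyltransferase now called NTMT1, had 11.96 and 11.65 CPM with the PELP1 shRNA and 26.4 and 28.5 CPM with the control shRNA. It fell by 1.22 on the log2 scale (SE 0.09; edgeR FDR = 1.83e-19), the largest change among the genes of these lists, and it shares 1036 exonic bases with antisense transcripts of ASB6 and C9orf50. METAP1, a methionine aminopeptidase that exposes NatA substrates, fell by 0.19 (SE 0.06; edgeR FDR = 0.00293). METAP2, the other cytosolic methionine aminopeptidase, had 262.6 and 258.2 CPM with the PELP1 shRNA and 245.2 and 246.3 CPM with the control shRNA and did not pass (0.08 ± 0.04, SE; edgeR FDR = 0.0516). NMT1, which attaches myristate to N-terminal glycine, rose (0.15 ± 0.04, SE; edgeR FDR = 0.000601). The METAP1 call was lost without control replicate 1 (adjusted p = 0.0823) and without PELP1 shRNA replicate 2 (0.0798), and the NMT1 call when control replicate 1 was (0.0737).

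The ubiquitin ligases and modifying enzymes that read N-terminal residues as degradation signals included several that fell. Among the 8 tested genes there were 5 that fell, 0 that rose and 3 that missed the threshold, against 29.5% lower and 28.6% higher over all genes tested, and the median of their log2 fold changes was −0.32. ATE1, the arginyltransferase that primes such signals, had 9.21 and 11.8 CPM with the PELP1 shRNA and 19.1 and 21.1 CPM with the control shRNA. Its groups did not overlap (−0.95 ± 0.10, SE; edgeR FDR = 1.61e-12). UBR4, a giant N-recognin, had 219.8 and 220.5 CPM with the PELP1 shRNA and 330.1 and 327.8 CPM with the control shRNA, and it fell by 0.58 on the log2 scale (SE 0.04; edgeR FDR = 1.73e-21). The N-recognin UBR1 had 62.3 and 60.7 CPM with the PELP1 shRNA and 82.5 and 79.2 CPM with the control shRNA, and it fell by 0.39 (SE 0.05; edgeR FDR = 1.59e-09). MARCH6, the membrane ligase that recognises acetylated ends, and the N-terminal glutamine amidase WDYHV1 were the others that fell, and CNOT4, UBR2 and NTAN1 did not pass. Among factors that bind the nascent chain, DNAJC2 fell by 0.23 (SE 0.04; edgeR FDR = 2.63e-06) and BTF3 rose (0.10 ± 0.04, SE; edgeR FDR = 0.0174), while NACA and HSPA14 did not pass. The BTF3 call was lost without control replicate 2 (adjusted p = 0.141) and without PELP1 shRNA replicate 2 (0.467). Over these lists together, 2 of 22 genes tested rose and 8 fell, and the median was −0.07.

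Genes near NAA11 on chromosome 4 were examined next. Within 1 Mb of NAA11 the files held 10 rows, and among the 7 with enough reads to test 0 rose, 5 fell and 2 missed the threshold, against 28.6% higher and 29.5% lower over all genes tested. The nearest gene toward higher coordinates, the testis glycerol kinase gene GK2, had no read in any of the 4 libraries, GDEP had none either, and the small nucleolar RNA gene SNORA75 had 1 to 5 reads. ANTXR2, an anthrax toxin receptor whose start lies 799393 bases from that of NAA11, had 11.3 and 12.3 CPM with the PELP1 shRNA and 37.3 and 38.2 CPM with the control shRNA. Its groups were far apart (−1.68 ± 0.08, SE; edgeR FDR = 1.72e-27). PRDM8, a transcriptional regulator, had 1.76 and 2.65 CPM with the PELP1 shRNA and 6.42 and 7.54 CPM with the control shRNA (−1.68 ± 0.17, SE; edgeR FDR = 2.82e-13). The growth factor gene FGF5 had 2.09 and 1.96 CPM with the PELP1 shRNA and 5.39 and 4.94 CPM with the control shRNA (−1.35 ± 0.18, SE; edgeR FDR = 1.89e-09). In all 3 genes both PELP1 shRNA libraries lay below both control libraries.

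On the side of lower coordinates the changes were smaller. PAQR3, the nearest tested gene there, had 38.7 and 40.0 CPM with the PELP1 shRNA and 44.5 and 42.1 CPM with the control shRNA and did not pass (−0.14 ± 0.06, SE; edgeR FDR = 0.0569), although it passed without control replicate 2 (adjusted p = 0.0457). BMP2K did not pass (−0.16 ± 0.09, SE; edgeR FDR = 0.144). ANXA3 fell by 0.14 (SE 0.06; edgeR FDR = 0.0492), a call lost in 12 of 13 alternatives, among them leaving out any 1 library other than control replicate 2 (adjusted p from 0.0999 to 0.331). FRAS1, an extracellular matrix gene whose far end falls inside the 1 Mb, had 12.5 and 10.6 CPM with the PELP1 shRNA and 19.5 and 18.3 CPM with the control shRNA (−0.71 ± 0.10, SE; edgeR FDR = 2.41e-09). The change of NAA11 was larger than that of each of the 7 tested neighbours. Since NAA11 was chosen for its change in these libraries, that order is a description only.

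**Figure D4:**
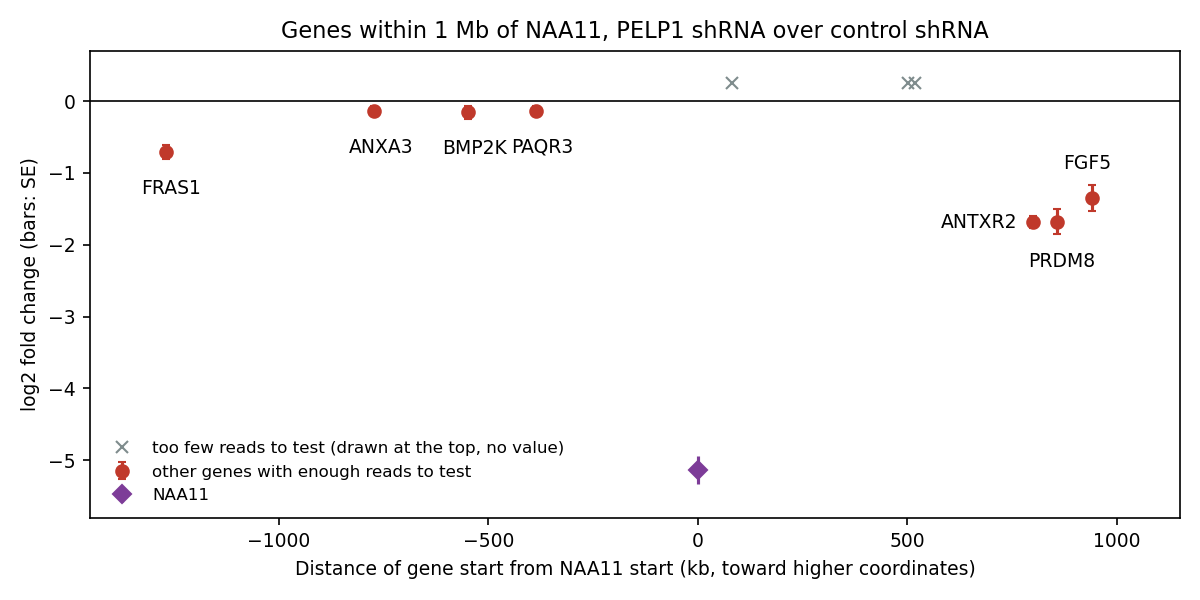
Log2 fold change, PELP1 shRNA over control shRNA, of NAA11 (purple diamond) and of the genes within 1 Mb of it against the distance of each gene's start from the NAA11 start (kb); bars are SE, and crosses mark 3 genes with too few reads for a value. NAA11 lies at −5.13, the 3 genes farthest toward higher coordinates between −1.68 and −1.35, and the 4 genes toward lower coordinates between −0.71 and −0.14.

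The genes whose CPM across the 4 libraries lay nearest to those of NAA11, by Euclidean distance of log2 values, are given as a description without a test. LOC100505817, which RefSeq lists as the long non-coding RNA gene LINC02582, was nearest at a distance of 1.02. It had 0.530 and 0.871 CPM with the PELP1 shRNA and 13.9 and 12.2 CPM with the control shRNA. POSTN, the matrix protein periostin, had 0.729 and 0.689 CPM with the PELP1 shRNA and 8.60 and 7.81 CPM with the control shRNA (distance 1.62). The coiled-coil gene CCDC152 had 0.862 and 0.726 CPM with the PELP1 shRNA and 9.24 and 9.37 CPM with the control shRNA (distance 1.64). All of these were low in both PELP1 shRNA libraries, as selection by likeness to NAA11 requires. SERPINB2, a plasminogen activator inhibitor, and MMP9, a secreted metalloproteinase, followed at 2.01 and 2.23. The 9 other subunits were not among the 5 nearest genes.

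Because NAA11 is an autosomal copy of an X-linked gene with its coding sequence in 1 exon, 12 other copies of that kind were set beside it. Among the 7 copies with enough reads there were 3 that rose and 1 that fell, and among 11 X-linked parents tested 0 rose and 4 fell, against 28.6% higher and 29.5% lower over all genes tested. RPL10L, a copy of the ribosomal protein gene RPL10, had 6.60 and 6.31 CPM with the PELP1 shRNA and 3.81 and 3.38 CPM with the control shRNA. It rose (0.85 ± 0.15, SE; edgeR FDR = 1.56e-06) while RPL10 fell by 0.24 (SE 0.04; edgeR FDR = 5.38e-07). FAM50B had 5.67 and 5.91 CPM with the PELP1 shRNA and 9.07 and 9.91 CPM with the control shRNA and fell by 0.72 (SE 0.12; edgeR FDR = 9.84e-07), while its parent FAM50A did not pass (0.05 ± 0.05, SE; edgeR FDR = 0.418). CSTF2T, a copy of the polyadenylation factor gene CSTF2, rose (0.26 ± 0.06, SE; edgeR FDR = 5.98e-05) while CSTF2 fell by 0.15 (SE 0.05; edgeR FDR = 0.00506). UTP14C rose (0.24 ± 0.07, SE; edgeR FDR = 0.00126) and UTP14A did not pass (−0.09 ± 0.05, SE; edgeR FDR = 0.140). The CSTF2 call was lost with upper-quartile factors (edgeR adjusted p = 0.0745) and with library size alone (0.29). It was also lost when PELP1 shRNA replicate 1 was left out (log2 fold change −0.12). With library size alone FAM50A passed as higher (0.137, edgeR adjusted p = 0.0124). Counts of such pairs may be partial, since reads aligned to more than 1 place were set apart from the gene counts. How many reads of these pairs were lost that way, or were counted for the wrong gene of a pair, was not measured. All 5529 exonic bases of UTP14C are shared with ALG11 on the same strand. Reads of UTP14C, 1 of the 3 copies that rose, therefore cannot be told apart from those of ALG11.

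**Figure D5:**
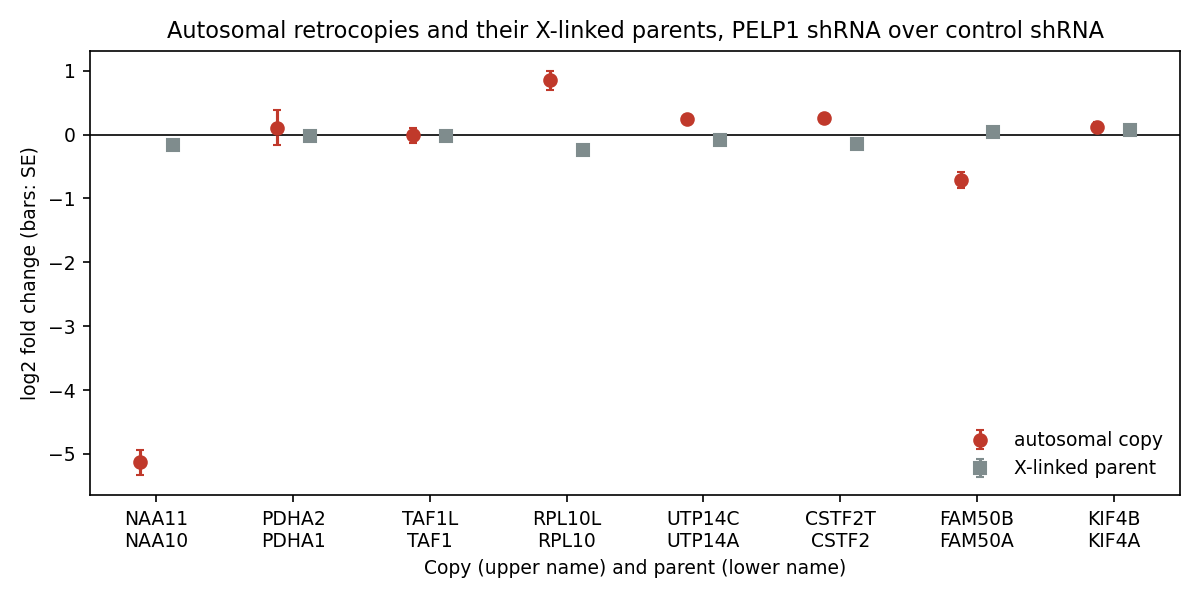
Log2 fold change, PELP1 shRNA over control shRNA, of autosomal copies (circles) and their X-linked parents (squares) where both had enough reads; bars are SE. NAA11, which was chosen for its change, lies at −5.13 and NAA10 at −0.17, and the other 7 copies lie between −0.72 and 0.85.

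Testis markers were examined because NAA11 has been described in that tissue. The 14 testis markers in the files, DDX4, DAZL, SYCP3 and ACRV1 among them, were each under 1 CPM in every library, and 6 of them, DAZL, SYCP1, TNP2, PRM1, PRM2 and SPATA16, were at 0. Their summed level was 0.663 and 0.690 CPM in PELP1 shRNA libraries and 0.813 and 0.389 CPM in control libraries, which overlap. A list of 16 medulloblastoma, cerebellar granule lineage and hedgehog genes, NES and VIM among them, was chosen to check the labelled cell line. Of these, 13 had enough reads, and 5 of the 13 rose, 4 fell and 4 did not pass. Over all genes tested, 28.6% were higher and 29.5% lower. The defining granule neuron factors ATOH1, BARHL1 and NEUROD1 had 0 to 6 reads per library. ZIC1, a factor of the same lineage, had 17.6 and 20.4 CPM with the PELP1 shRNA and 20.2 and 21.9 CPM with the control shRNA and did not pass. PAX6 (0.53 ± 0.09, SE; edgeR FDR = 1.96e-07), OTX2 (0.48 ± 0.14, SE; edgeR FDR = 0.00192) and ZIC2 (0.26 ± 0.09, SE; edgeR FDR = 0.00877) rose. So did GLI1 (0.80 ± 0.33, SE; edgeR FDR = 0.0332) and EYA1 (0.41 ± 0.12, SE; edgeR FDR = 0.00318). In the other direction, GLI2 (−0.71 ± 0.07, SE; edgeR FDR = 2.16e-13), PTCH1 (−0.51 ± 0.07, SE; edgeR FDR = 3.42e-09) and VIM (−0.51 ± 0.03, SE; edgeR FDR = 1.48e-21) fell. HHIP, a hedgehog-binding inhibitor, had the largest change of the list, at 3.78 and 2.90 CPM with the PELP1 shRNA and 19.8 and 21.1 CPM with the control shRNA (−2.61 ± 0.12, SE; edgeR FDR = 9.62e-29). The summed level of the 16 genes was 4183 and 4193 CPM with the PELP1 shRNA and 5806 and 5945 CPM with the control shRNA, most of it from the intermediate filament gene VIM, and its part in the subunit values was not tested.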

How the data were processed

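The authors deposited raw read counts per gene symbol, 1 file per library. Per the labels, 50-base single-end reads came from Illumina TruSeq total RNA libraries. TopHat2 2.0.8b, HTSeq and the build hg19 are named per the submitters' processing notes. The version of HTSeq, its annotation and whether it used strand were not given in the sources used here. Rows that name no gene were left out. Of the file total, alignments that were not unique held 29.4% to 30.8%, reads in no gene 8.83% to 9.08% and ambiguous reads 0.579% to 0.602%.

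Counts were tested with edgeR 4.0.16 in R 4.3.3 (filterByExpr, TMM factors, robust quasi-likelihood fit on the shRNA group, two-sided, FDR threshold 0.05). The fit was checked on simulated counts. Positions and lengths came from the GENCODE annotation on hg19, and promoters from RefSeq. Libraries had 24052542 to 29221640 counts in genes. Chi-square per degree of freedom was 2.37 within the PELP1 shRNA pair and 2.47 within the control pair. Each library counted as 1 sample, although these values do not show whether the duplicates were separate cultures. The common biological coefficient of variation estimated by edgeR was 2.99%, below the 10% and 20% assumed as alternatives.

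The members and the gene lists were chosen with earlier results of these data known. Genes named were the members, PELP1, the other acetyltransferases and the called genes of largest change (at most 3) in each further list. Named too were neighbours within 1 Mb, the 5 genes nearest to NAA11, and copies with their parents. METAP2, further ligases, NACA, HSPA14, markers, C15orf63 and SERF2-C15ORF63 were named after their values were seen. A row named NAA38 was left out, because that symbol has also been used for LSM8. A further gene was taken off the degradation list and is not reported here. Alternatives were DESeq2 1.42.0, limma-voom (limma 3.58.1), other scalings and filters, a replicate block, other gene lengths, and each library left out.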

Additional observations from a re-analysis of the deposited data

How the results depend on the processing

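No subunit changed the sign of its log2 fold change under any of 13 alternatives. NAA20, NAA40 and NAA50 passed under each planned one. With library sizes alone 5681 genes were higher and 3305 lower (63.2% of calls higher, against 4276 and 4424, 49.1%), and with upper-quartile factors 57.9% of calls were higher. With library sizes alone the median log2 fold change of all genes was 0.092. NAA15 (adjusted p = 0.367) and NAA25 (0.609) missed the threshold with library sizes alone, while NAA30 (0.000516) and NAA35 (0.00194) passed. NAA30 also passed with upper-quartile factors (0.00476), no low-count filter (0.0361) and a filter at 5 CPM (0.024), and NAA35 with upper-quartile factors (0.0138). NAA15 missed it with upper-quartile factors (0.0923), and NAA16 with DESeq2 (0.0695). Leaving out 1 library gave 7420 to 7757 genes, 5 to 7 of the 9 subunits and 8 to 9 other pathway genes past the threshold, against 8700, 7 and 10. With the replicate block 8161 genes, 6 subunits (NAA25 lost, adjusted p = 0.0723) and 9 pathway genes passed; deviations of same-numbered libraries correlated at 0.0109, so the numbers were not shown to pair the libraries. An assumed biological variation, chosen after the data were seen, left 4363 genes, 1 subunit (NAA50) and 4 pathway genes at 10%, and 1325, 0 and 2 at 20% (edgeR likelihood-ratio test, with 1 subunit at an unadjusted p under 0.05; DESeq2 called 5). The NAA11 share in control cells was 23.6% per kb of exon, 14.5% in reads and 11.8% per kb of the longest coding transcript. The genes that did not pass and changed sign were LSMD1 (0.018) and UTP14A (0.0027) with library sizes alone, and NAA60, which ranged from −0.0202 (without PELP1 shRNA replicate 1) to 0.054 (without PELP1 shRNA replicate 2). The 9 and 14 NAA11 reads of the PELP1 shRNA libraries limit the precision of its fold change.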
